A study of Mus musculus with 4 samples.

Results

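Footprint levels are described here for 10 genes of DNA methylation in mouse embryonic stem cells, taken by gene symbol from the 25170 genes of the ribosome profiling table. They are the methyltransferases Dnmt1, Dnmt3a and Dnmt3b with the cofactor Dnmt3l, the maintenance factor Uhrf1, the erasers Tet1, Tet2 and Tdg, and the readers Mbd2 and Mbd3. All 10 were found, and 9 reached the mean of 1 FPKM over the libraries that was set for testing, together with 9741 genes in all. FPKM counts the fragments of a gene per kilobase of its model, scaled by the mapped fragments of the library.

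The cells were wild-type E14, an embryonic stem cell line of inner cell mass origin, grown on gelatin in medium with serum and leukemia inhibitory factor. Both groups were kept under these conditions for 3 passages. The control group received the solvent DMSO and the other group received 1 µM of a compound that the labels give only as PD, with 2 libraries each. The question of the study is what the kinase Mek does to gene expression after transcription. Whether the replicates of a group were grown apart is not in the labels, and each p-value therefore reflects the spread of these libraries, which may be technical. Ribosome-protected RNA follows both the amount of an mRNA and how many ribosomes sit on it, and neither can be told apart here, nor can fewer cells carrying an mRNA from less of it per cell.

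Methyl groups on cytosine are placed on unmethylated CpG sites by Dnmt3a and Dnmt3b, which Dnmt3l helps without being an active enzyme itself. After replication they are copied by Dnmt1, which Uhrf1 brings to half-methylated DNA. Tet enzymes oxidize the mark and Tdg cuts out the oxidized base, while methyl-CpG-binding proteins such as Mbd2 recruit repressors, among them the NuRD complex, of which Mbd3 is also a subunit. Embryonic stem cells in serum carry high methylation, and blocking Mek is part of the ground-state medium in which methylation is known to be low.

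The PD values rested on fewer counted reads. Depth here is the inverse of the FPKM that 1 read is worth in a library, not the number of reads sequenced. Read from the steps in the FPKM values, the depth of DMSO replicate 2 was 1.42 times that of DMSO replicate 1, while the PD libraries reached 0.464 times (replicate 1) and 0.201 times (replicate 2), so depth went with treatment. The 8 embryonic stem cell markers checked were present in every library, the lowest value being 12.02 FPKM for Tdgf1. Nanog had 70.0 and 57.1 FPKM in DMSO and 136 and 116 in PD. Zfp42 was also higher in both PD libraries, Sox2 was lower in both, and the other 5 overlapped between groups. The 37.5% without overlap stands beside 35.8% of all tested genes. The 7 primitive endoderm markers summed to 0.651 and 0.711 FPKM in DMSO and to 1.34 and 1.25 in PD, with Gata6 listed at 0 throughout. None of the 7 reached the level set for testing. The sum of PD replicate 2, the shallowest library, came from Gata4, Sox7 and Afp, at 1 recovered read each. The 10 fibroblast and feeder markers summed to 193 and 135 FPKM in DMSO and to 288 and 269 in PD. Nearly all of that was Vim and Fn1, which differed in direction. Vim had 105 and 29.7 FPKM in DMSO and 207 and 185 in PD, whereas Fn1 had 86.3 and 103 in DMSO and 79.3 and 80.1 in PD. Thy1, the only other one of the 10 that was tested, had 1.13 and 1.49 FPKM in DMSO and 1.82 and 2.10 in PD. Of the 3 tested, 2 were higher and 1 lower in both PD libraries. Their 100% without overlap stands beside 35.8% of all tested genes. The markers Postn, Lum and S100a4 were listed at 0 in every library. The part of these marker levels in the results below was not tested.

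No gene of the 10 passed the test between PD and DMSO (limma on log2(FPKM + 1), adjusted over all 9741 genes, threshold 0.05). Over all genes, 0.0308% passed as higher in PD and 0.226% as lower, and none of these was protein-coding. An unadjusted p under 0.05 was reached by 2 of the 9 tested genes, Mbd2 and Tet2, against 5.76% of all tested genes. With voom on recovered reads, which covers 5 of the 10, 0 passed and 1 had an unadjusted p under 0.05. Tet2 was the only one of the 10 with both PD libraries above both DMSO libraries, a pattern that 17.5% of all tested genes showed. For Dnmt3b and Mbd2 each PD library lay below each DMSO library, as for 18.3% of all tested genes. The other 6 genes overlapped between groups. The share without overlap, 33.3%, lay near the 35.8% of all tested genes and is no result about these genes. Their median log2 difference was -0.05, beside -0.02 over all tested genes.

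**Figure D1:**
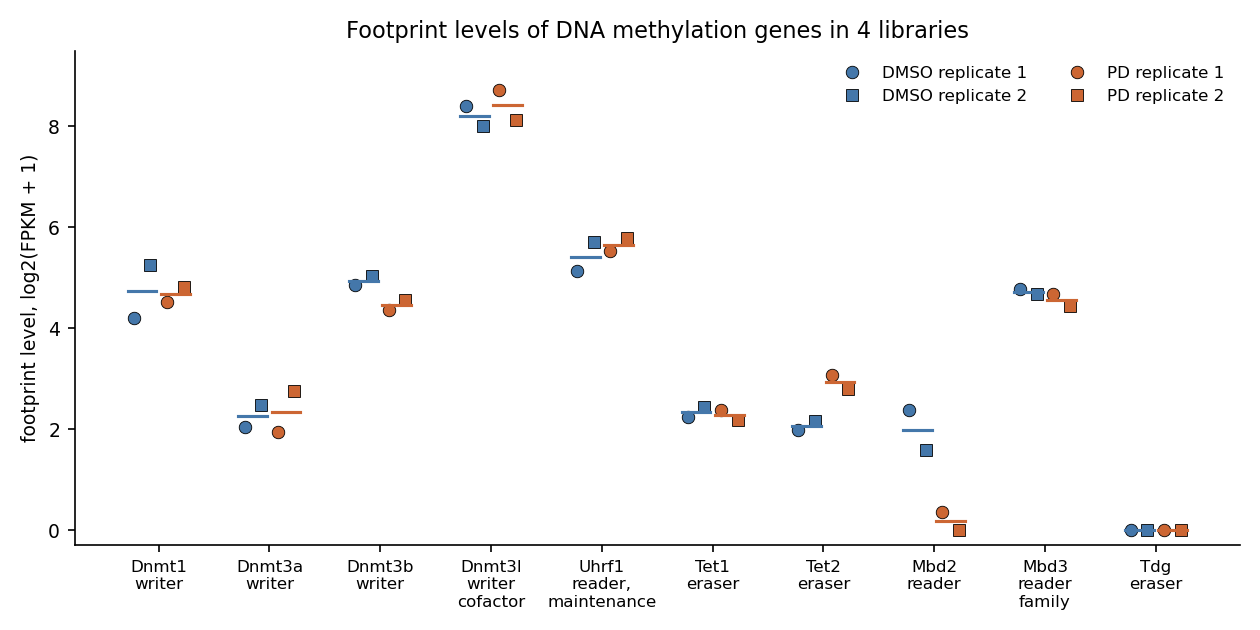
Footprint level of each gene on the log2(FPKM + 1) scale in the 2 DMSO libraries (blue) and the 2 PD libraries (orange), with a bar at each group's mean and the gene's role under its name. Dnmt3l stands highest and Tdg is at 0 in all libraries, and the groups separate for Dnmt3b, Tet2 and Mbd2.

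Dnmt3l had by far the most footprints per length of the 10 genes, with a mean of 324 ± 73.2 FPKM (SD over the 4 libraries), above 98.9% of the protein-coding genes tested. It exceeded the next gene, Uhrf1 at 46.1 ± 8.74 FPKM, by 7.03 times, and did so in all 4 libraries. Uhrf1 in turn lay above Dnmt1 in each library, although the ranges of both over the libraries overlapped. Dnmt1 at 26.0 ± 8.55, Dnmt3b at 25.5 ± 5.42 and Mbd3 at 24.0 ± 2.36 FPKM did not differ beyond their spread. Mbd3 exceeded Tet2 by 4.86 times and in all 4 libraries. Tet2 at 4.95 ± 2.11, Dnmt3a at 4.07 ± 1.37 and Tet1 at 3.999 ± 0.425 FPKM again lay within each other's spread. Mbd2 had the lowest mean of the tested genes, 1.63 ± 1.94 FPKM, and lay below Tet1 in 3 of the 4 libraries. In DMSO replicate 1, at 4.21 FPKM, it lay above Tet2, Dnmt3a and Tet1. These levels depend on the length of each gene model, and the sources used here do not give whether untranslated parts of the mRNA count towards it. In DMSO replicate 1, for instance, 1 read was worth 0.0675 FPKM for Uhrf1 and 0.0153 for Tet1.

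Among the writers, Dnmt3b was the one whose groups separated. Dnmt3b methylates CpG sites of repeats and gene bodies and is the main de novo enzyme of cells that leave the naive state (mm10, chromosome 2, 153649449 to 153687730). Its level was 28.2 and 31.6 FPKM in DMSO against 19.6 and 22.5 in PD. Both PD values lay below both DMSO values, and the spread within either group was smaller than the gap between them. The log2 difference came to -0.49 (SE 0.25) with a 95% interval from -1.15 to 0.18 (limma adjusted p = 0.837). The 4 values rested on 498, 792, 161 and 80 recovered reads. The counting error of PD replicate 2 alone ran from 17.8 to 28.0 FPKM (exact Poisson, 95%), which reaches into that of DMSO replicate 1, from 25.8 to 30.8.

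Dnmt3a, the other de novo enzyme (chromosome 12, 3806980 to 3914443), showed no such separation. It had 3.10 and 4.57 FPKM in DMSO and 2.83 and 5.79 in PD, so that the PD libraries held both the lowest and the highest value. The difference of 0.09 on the log2 scale (SE 0.41, limma adjusted p = 0.978) was smaller than its error, and turned sign without DMSO replicate 1 (-0.13), without PD replicate 2 (-0.32) and with voom (-0.03). The DMSO libraries already differed by more than counting error, with exact Poisson intervals of 2.58 to 3.69 and 4.03 to 5.16 FPKM. The antisense RNA Dnmt3aos in the same locus was listed at 0 in every library.

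Dnmt3l, the catalytically inactive partner of both enzymes, is joined with the neighbouring gene Aire in the deposited locus (chromosome 10, 78030022 to 78063622). Its level was 340 and 258 FPKM in DMSO and 421 and 279 in PD. The highest value was that of PD replicate 1, and PD replicate 2 fell between the DMSO libraries. The log2 difference was 0.21 with a 95% interval from -0.71 to 1.13 (limma adjusted p = 0.93), and it was -0.09 without PD replicate 1. Aire, which encodes a transcriptional regulator of the thymus, was far lower, at 5.50 and 4.30 FPKM in DMSO and 5.12 and 2.95 in PD.

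The maintenance pair overlapped between groups as well. Dnmt1, which copies the methylation pattern after replication (chromosome 9, 20907206 to 20959888), had 17.5 and 37.3 FPKM in DMSO and 21.9 and 27.4 in PD. The DMSO libraries differed from each other by 2.13 times and enclosed both PD libraries. The log2 difference of -0.06 (SE 0.44, limma adjusted p = 0.987) turned above 0 with quantile normalization (0.0010), without DMSO replicate 2 (0.46) and without PD replicate 1 (0.09). Its 95% interval ran from -1.24 to 1.11.

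Uhrf1, which recognizes half-methylated CpG and recruits Dnmt1 (chromosome 17, 56303337 to 56323486), had 34.2 and 51.1 FPKM in DMSO and 45.3 and 54.0 in PD. DMSO replicate 1 was the low library for this gene as for Dnmt1. The log2 difference was 0.23 (SE 0.31, limma adjusted p = 0.907), and -0.05 without DMSO replicate 1. With 507, 1073, 311 and 161 recovered reads, the exact Poisson intervals of the DMSO libraries, 31.3 to 37.3 and 48.1 to 54.3 FPKM, did not meet, so these replicates differed by more than counting error.

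**Figure D2:**
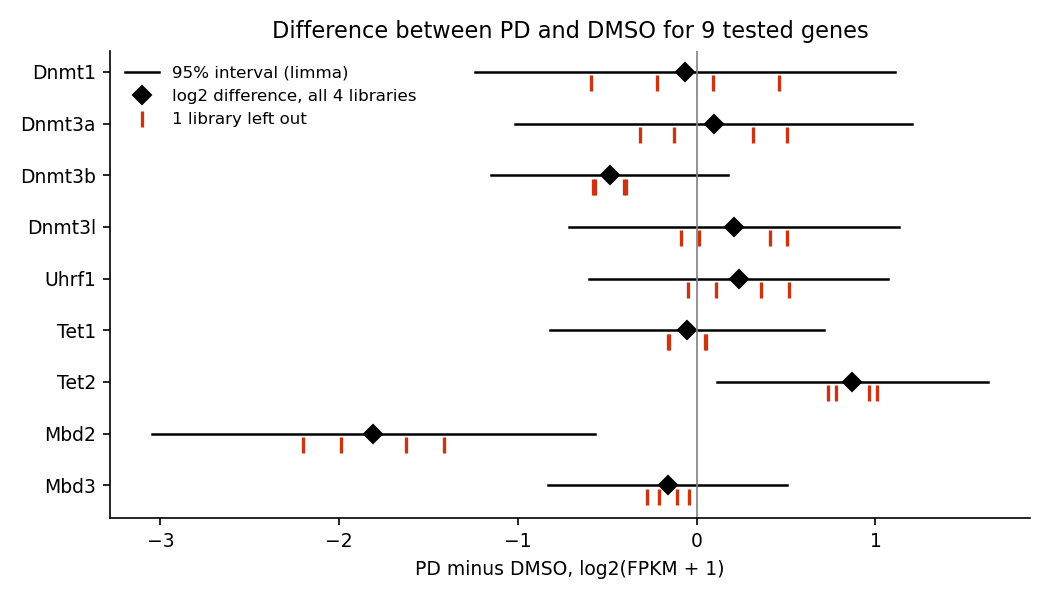
Difference between PD and DMSO on the log2(FPKM + 1) scale for the 9 tested genes, with limma's 95% interval (line) and the value when 1 library is left out (red ticks). The intervals of Tet2 (0.11 to 1.63) and Mbd2 (-3.05 to -0.57) lie to one side of 0 before adjustment over all genes, and those of the other 7 include 0.

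Among the erasers, Tet2 had a footprint level in PD about double that in DMSO, a difference that did not pass. Tet2 oxidizes methylcytosine and lacks the DNA-binding CXXC domain that Tet1 carries (chromosome 3, 133463677 to 133544390). It had 2.94 and 3.47 FPKM in DMSO against 7.42 and 5.97 in PD. Both PD libraries lay above both DMSO libraries, and the PD mean was 2.09 times the DMSO mean (6.70 ± 1.02 and 3.20 ± 0.375 FPKM, SD, n = 2). The log2 difference of 0.87 with an SE of 0.28 had an unadjusted p of 0.0329 (limma adjusted p = 0.823). It kept its sign in every setting that tested it, which the filter of 5 FPKM did not, from 0.73 up to 1.101 with limma adjusted p-values from 0.523 to 1. The unadjusted limma p rose to 0.0543 without a filter on low values and to 0.0512 with the replicate block. It fell to 0.0270 at a pseudocount of 0.1, to 0.0248 with quantile normalization and to 0.0073 with voom (adjusted p = 0.634). With any 1 library left out, the log2 difference ran from 0.73 to 1.01. The recovered reads were 122 and 204 in DMSO and 143 and 50 in PD. The exact Poisson intervals of the DMSO libraries, 2.44 to 3.50 and 3.01 to 3.97 FPKM, stayed below those of the PD libraries, 6.25 to 8.74 and 4.43 to 7.88. The deposited confidence bounds are wider, with 1.64 to 5.29 FPKM in DMSO replicate 2 and 3.98 to 10.9 in PD replicate 1, and share values between the groups.

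Tet1, the most studied Tet enzyme of embryonic stem cells (chromosome 10, 62804570 to 62887324), was nearly level. It had 3.73 and 4.46 FPKM in DMSO and 4.25 and 3.56 in PD, with the PD libraries giving the lowest and the second highest value. The log2 difference was -0.05 with a 95% interval from -0.82 to 0.71 (limma adjusted p = 0.983). Its sign turned with quantile normalization (0.01), without DMSO replicate 2 (0.05) and without PD replicate 2 (0.05). Within each library, the ratio of Tet2 to Tet1 was 0.788 and 0.777 in DMSO and 1.75 and 1.68 in PD. Tet2 thus had the lower FPKM of the 2 in DMSO and the higher in PD, an order that depends on the gene models' lengths. The exact Poisson intervals of the 2 genes met in DMSO replicate 1 and PD replicate 2, but not in DMSO replicate 2 or PD replicate 1.

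Tdg, the glycosylase that removes oxidized methylcytosine, was listed at 0 in all 4 libraries and was not tested. Its deposited locus (chromosome 10, 82629838 to 82690650) also spans the pseudogene Tdg-ps2, likewise listed at 0, and Glt8d2, listed at 0.469 FPKM in DMSO replicate 2 and at 0 elsewhere. Ahcy, an enzyme that clears the by-product of methylation in all cells, was also listed at 0 in 3 of the 4 libraries. Whether a listed 0 means a lack of footprints was not tested for either gene. In the whole table, 5674 of 20708 protein-coding genes (27.4%) were listed at 0 throughout.

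**Figure D3:**
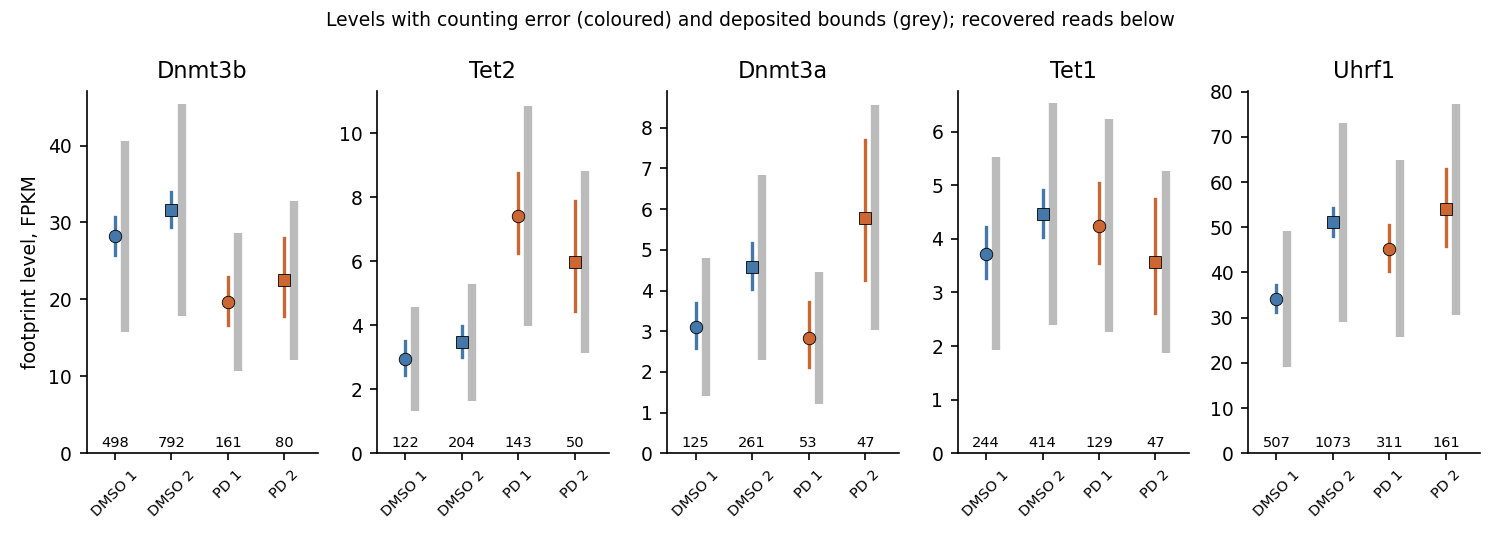
FPKM of the 5 genes with recovered reads in every library, with exact Poisson 95% intervals (coloured lines), the deposited confidence bounds (grey bars) and the recovered reads under each point. The Poisson intervals of Tet2 separate the groups, while those of Dnmt3a and Uhrf1 already separate the 2 DMSO libraries.

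Of the readers, Mbd2 had the largest difference of the 10 genes and the thinnest data of those tested, and it did not pass. Mbd2 binds methylated CpG and brings the NuRD deacetylase complex to it (chromosome 18, 70568292 to 70626131). DMSO gave 4.21 and 2.02 FPKM, PD replicate 1 gave 0.283, and PD replicate 2, the shallowest library, is listed at 0. Both PD values lay below both DMSO values, and the DMSO libraries differed by 2.09 times. The log2 difference of -1.81 (SE 0.46) had an unadjusted p of 0.0145 (limma adjusted p = 0.788, between 0.421 and 1 over the alternatives). Its size depends on the pseudocount, with -2.46 at 0.5 and -3.95 at 0.1, and its mean in PD, 0.141 FPKM, is under the level set for testing, which it reached through DMSO. No whole reads could be recovered for Mbd2. Were the value of PD replicate 1 a single read, the DMSO values would stand for 32.2 and 21.8 reads. The mean of DMSO would then give 11.0 reads in PD replicate 1, against the 1 assumed, and 4.79 reads in PD replicate 2. On that scale, the 3 reads that a count of 0 allows would be worth 1.95 FPKM in PD replicate 2. DMSO replicate 2 had 2.02 FPKM. The 3 reads would be worth less if PD replicate 1 held more than 1 read. The part of depth in the difference of Mbd2 was not tested.

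Mbd3, which is a close relative of Mbd2 and a core NuRD subunit but binds methylated CpG poorly in mammals (chromosome 10, 80392539 to 80399531), stayed within its spread. It had 26.3 and 24.5 FPKM in DMSO and 24.6 and 20.7 in PD, and PD replicate 1 lay just above DMSO replicate 2. The log2 difference was -0.16 with a 95% interval from -0.83 to 0.51 (limma adjusted p = 0.925). The ratio of Mbd2 to Mbd3 was 0.160 and 0.0824 with DMSO but 0.0115 (replicate 1) and 0 (replicate 2) with PD.

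A plain ratio between genes of one library is the same whatever constant that library is multiplied by, and 5 pairs were compared. Their differences on log2(FPKM + 1) are not strictly free of such scaling, because of the added 1. For Dnmt3l to the sum of Dnmt3a and Dnmt3b the difference was 0.61. It stayed at 0.61 when each library was multiplied to equal sums of protein-coding genes. Quantile normalization, which is not a constant scaling, gave 0.51. With 2 libraries a group, the exact two-sided permutation test cannot give a p below 0.333, so none could pass. On log2(FPKM + 1), the PD minus DMSO difference was 0.92 for Tet2 to Tet1, -1.65 for Mbd2 to Mbd3 and 0.30 for Uhrf1 to Dnmt1. These groups did not overlap and each had an exact permutation p of 0.333 (0.417 adjusted over the 5 pairs). The size for Mbd2 to Mbd3 depends on the pseudocount, with -2.30 at 0.5 and -3.78 at 0.1. Uhrf1 to Dnmt1 stood at 1.95 and 1.37 in DMSO and at 2.07 and 1.97 in PD, and its difference was 0.057 without DMSO replicate 2 and 0.54 without DMSO replicate 1. Dnmt3a to Dnmt3b differed by 0.58 with the same p (0.26 without PD replicate 2 and 0.90 without PD replicate 1), but the plain ratios met, at 0.110 and 0.144 in DMSO and 0.144 and 0.258 in PD. Dnmt3l to the sum of Dnmt3a and Dnmt3b was 10.9 and 7.12 in DMSO and 18.7 and 9.87 in PD, with PD replicate 2 between the DMSO libraries (exact permutation p = 0.667). Its difference ran from 0.16 without PD replicate 1 to 1.07 without PD replicate 2.

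**Figure D4:**
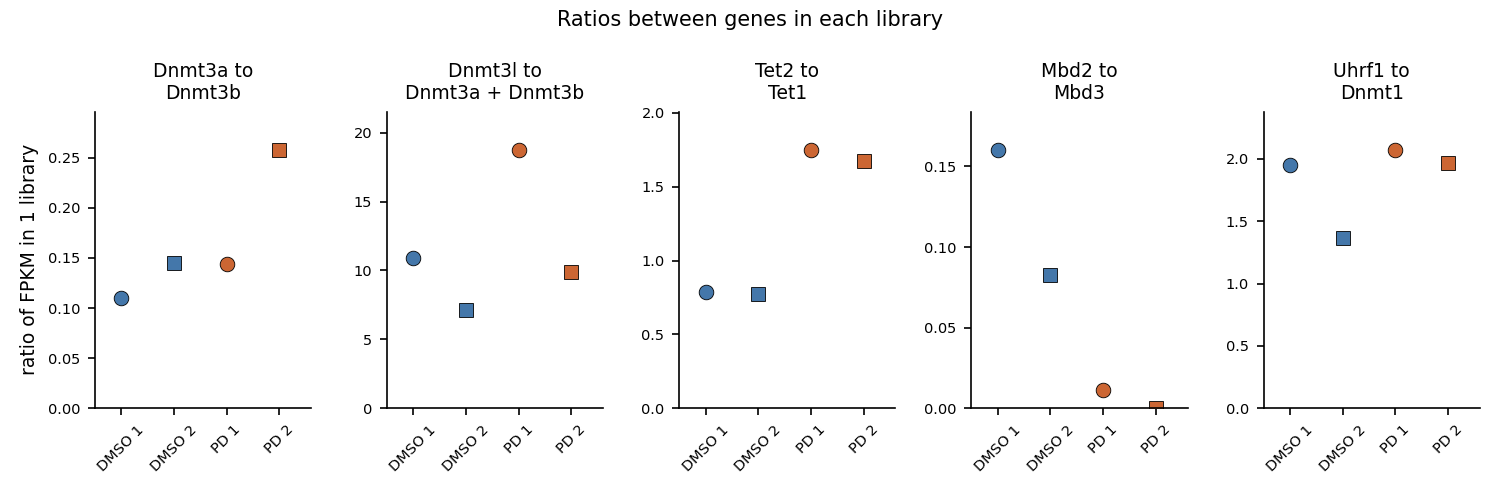
Ratio of FPKM between genes of the same library for 5 pairs, each panel with its own axis from 0. Tet2 to Tet1 is near 0.78 in both DMSO libraries and near 1.7 in both PD libraries, and Mbd2 to Mbd3 is lower in both PD libraries, whereas Dnmt3l to Dnmt3a plus Dnmt3b overlaps.

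A likeness search asked which of the other 8862 protein-coding genes tested followed the 4 libraries most like Mbd2 and Tet2, by Euclidean distance of log2(FPKM + 1) centred per gene. Closest to Mbd2 were Slc25a5, Magohb and Jade3, at distances of 0.18, 0.22 and 0.22. Slc25a5, a mitochondrial nucleotide carrier whose processed copies can take part of its reads, stood at 11.3 and 5.30 FPKM in DMSO and 1.70 and 0.981 in PD. Closest to Tet2 were Skap2, Nrxn2 and Jun, at 0.05, 0.09 and 0.11, and the adaptor Skap2 had 8.87 and 10.4 FPKM in DMSO and 21.1 and 16.4 in PD. Over 4 libraries such a likeness is only a description.

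The other genes of the pathway showed no call in either direction. Of 11 other methylation enzymes and readers, 6 were tested and 0 passed. Of the 6, 1 (16.7%) had no overlap between groups, beside 35.8% of all tested genes. That gene was Trdmt1, a relative of the methyltransferases that acts on tRNA, at 2.84 and 3.32 FPKM in DMSO and 4.21 and 3.52 in PD. Tet3, the remaining Tet enzyme, was too low to test, at 0.121 FPKM in DMSO and 0.0501 in PD. Zbtb38, Mbd1 and Zbtb33, further readers, had the largest differences beside Trdmt1 (log2 -0.33, 0.27 and -0.25) and overlapped between groups. The list's median was 0.19 (-0.096 without DMSO replicate 1), and its smallest adjusted p was 0.891 (limma).

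Partners that recruit or sustain methylation held 12 tested genes, of which 0 passed, 4 had both PD libraries above DMSO and 3 had both below. The 58.3% without overlap stands beside 35.8% of all tested genes. Zfp57, a zinc finger protein that keeps imprints methylated, had 165 and 93.9 FPKM in DMSO and 198 and 218 in PD (log2 0.73, limma adjusted p = 0.837). Dppa3, which holds Uhrf1 away from chromatin, had 3.503 and 2.23 FPKM in DMSO and a listed value of 0 in either PD library (limma adjusted p = 0.689). It reached the level set for testing through DMSO alone, where it rested on 10 and 9 recovered reads, and the PD libraries had less depth. Cdca7, a cofactor of the remodeller Hells in methylation maintenance, had 24.5 and 29.8 FPKM in DMSO and 21.8 and 19.9 in PD, and Pclaf, a Pcna-binding protein, had a log2 difference of 0.40. The median of the list was 0.04.

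NuRD subunits, the complex that Mbd2 and Mbd3 share, numbered 10 tested of 12, with 2 above, 2 below and a median of 0.02. The 40% without overlap lay near the 35.8% of all tested genes and is no result about these genes. The deacetylase Hdac2 had 67.2 and 64.9 FPKM in DMSO and 106 and 94.6 in PD (log2 0.59, SE 0.24, limma adjusted p = 0.837). Mta2 had 23.7 and 31.5 FPKM in DMSO and 35.7 and 43.1 in PD, whereas Gatad2b was lower in both PD libraries (log2 -0.26) and Mta1 overlapped (-0.35). Base excision repair genes, which act after Tdg, had 8 of 10 tested and a median of 0.03. Of those tested, 1 (12.5%) had no overlap between groups, beside 35.8% of all tested genes. That gene was the glycosylase Neil3, with 1.16 and 1.93 FPKM in DMSO and 2.04 and 2.09 in PD. Neil1, Parp1 and Apex1 overlapped, with log2 differences of 0.27, -0.19 and 0.16.

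Genes that supply and recycle the methyl donor had 5 of 6 tested and a median of 0.06 (0.62 over the 2 that voom tested). Mtr, Mtrr and Mat2b overlapped, with log2 differences of 0.33, -0.08 and 0.06. Germline genes that promoter methylation is known to silence had 7 of 14 tested, 2 above and 1 below. The 42.9% without overlap stands beside 35.8% of all tested genes, and the list's median was 0.00. That median was -0.30 without DMSO replicate 2, 0.60 without PD replicate 2 and 1.05 over the 5 genes that voom tested. Stk31 had 1.28 and 2.21 FPKM in DMSO and 7.06 and 3.18 in PD, and Dazl had 0.797 and 1.07 in DMSO and 2.06 and 1.58 in PD. Tdrkh went the other way, at 1.94 and 2.35 FPKM in DMSO and 0.927 and 0.306 in PD, and Sycp3 overlapped, with 6.07 FPKM and 0 in the PD libraries. Dazl, with a DMSO mean of 0.933 FPKM, reached the level set for testing through PD, and Tdrkh, with a PD mean of 0.617, through DMSO. Stk31 rested on 18 and 44 recovered reads in DMSO and 46 and 9 in PD, and Dazl on 10 and 19 in DMSO and 12 and 4 in PD. No gene of these 4 lists passed, and their smallest adjusted p-values ran from 0.837 to 0.902 (limma).

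**Figure D5:**
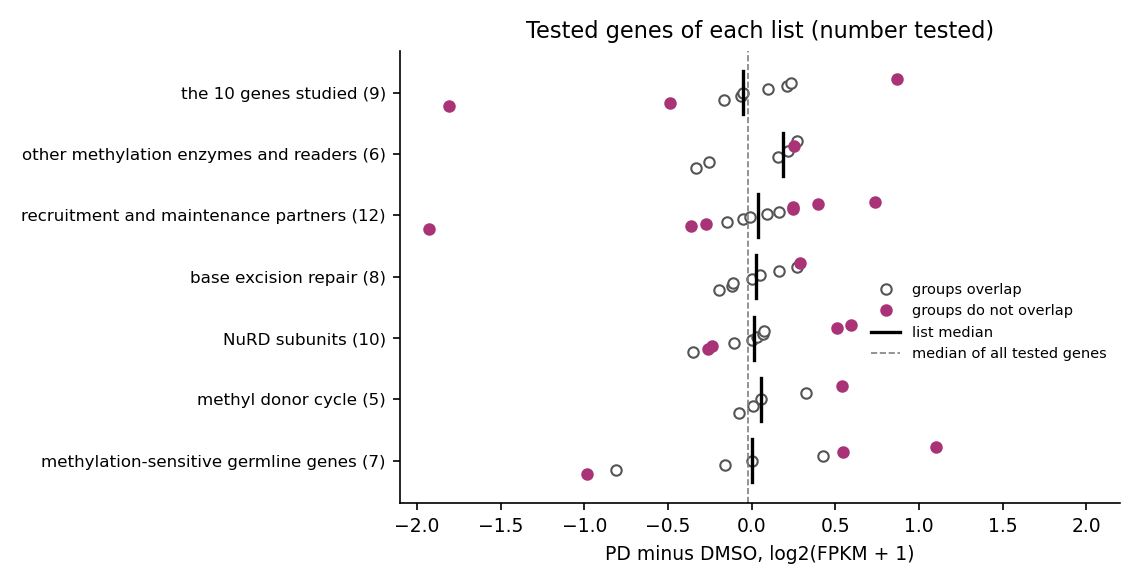
PD minus DMSO difference on the log2(FPKM + 1) scale for each tested gene of the 10 genes studied and of 6 related lists, filled where the groups do not overlap, with each list's median (black bar) and the median of all tested genes (dashed line). With all 4 libraries in the limma fit the list medians lie between -0.05 and 0.19, and that of all tested genes at -0.02.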

How the data were processed

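Per the file headers, the authors' deposited table holds an FPKM value for each gene and library and confidence bounds around it. FastQC, Trimmomatic, Bowtie2, STAR, Cufflinks and the build mm10 are named in the submitters' processing notes. The sources used here do not give how reads matching several places were handled. Starts were raised by 1, and biotypes came from a RefSeq table of GRCm38.p6, which holds 24976 of the 25170 symbols. 1 gene with a failed status was left out.

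The test was limma 3.58.1 (R 4.3.3, lmFit and eBayes with trend) on log2(FPKM + 1) with group as the only term, for all genes whose mean reached 1 FPKM, with Benjamini-Hochberg adjustment. Fold changes on this scale understate the change of low genes. The fit was tested on simulated data.

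Whole reads were recovered where all values of a gene were whole multiples, within 0.02 reads, of 1 read's worth per library. This held for 72.7% of the 10161 genes above 0 in every library, against 1.66% with wrong steps. They are the smallest numbers that fit, and intervals on them cover counting error only.

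The members, lists and tests were chosen with earlier results of these data known. Named from each list were the tested genes with the 4 largest differences, and genes that did not overlap or were listed at 0 were added after their values were seen. Some of these genes are not reported here. Likeness was searched for Mbd2 and Tet2 alone.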

Additional observations from a re-analysis of the deposited data

How the results depend on the processing

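None of the 10 genes passed in any setting tried. Dnmt3b, Tet2, Mbd2 and Mbd3 kept their sign in all settings that could test them. Signs turned for Dnmt1 and Tet1 with quantile normalization (0.0010 and 0.014) and for Dnmt3a with voom (-0.027). Leaving out 1 library turned signs for Dnmt1 (-0.59 to 0.46), Dnmt3a (-0.32 to 0.51), Dnmt3l (-0.087 to 0.51), Uhrf1 (-0.048 to 0.52) and Tet1 (-0.16 to 0.050). Of the other genes named, it did so for Apex1 (-0.26 to 0.59), Parp1 (-0.47 to 0.081), Mta1 (-0.85 to 0.15), Mat2b (-0.17 to 0.28), Mtrr (-0.41 to 0.25), Mbd1 (-0.11 to 0.64), Zbtb33 (-0.62 to 0.11), Zbtb38 (-0.96 to 0.29) and Sycp3 (-2.22 to 0.60). The lone library of a group was assumed to vary like the other group. The 5 ratios kept their direction, not their size, in the settings run for them.

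Over all genes, 3 passed as higher and 22 as lower in PD. Restricted to protein-coding genes 0 passed either way (606 had an unadjusted p under 0.05), and likewise 0 with voom (432 had an unadjusted p under 0.05). The protein-coding set leaves out the 19 miRNA and 6 snoRNA genes that passed, while voom tested 23 of these 25. Leaving out 1 library gave 0 to 27 higher and 0 to 20 lower, with 0 and 0 without either DMSO library, 13 and 10 without PD replicate 1, and 27 and 20 without PD replicate 2; the cause was not tested. The replicate block gave 2 and 17, and 0 of the 10 genes. The labels give no tie between same-numbered libraries, whose deviations correlated at 0.099 over all tested genes and 0.20 over protein-coding genes; the numbers were not used as pairs. PD replicate 2, the shallowest library, limits Mbd2 and the other low genes most.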
